A study of Rattus norvegicus with 4 samples.

Results

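Genes that carry glucose and fructose across membranes and phosphorylate them were compared between the liver of obese and lean WNIN/Ob rats. The list of 9 genes was given by name and comprised the carriers Slc2a1, Slc2a2, Slc2a4, Slc2a5, Slc2a8 and Slc2a9, the kinases Khk and Hk2, and Gckr, a regulatory protein of glucose phosphorylation. A gene was read from its probe set with a single gene symbol, and 8 of the 9 were measured this way, of 14506 genes in all. Slc2a9 has no entry under its symbol in the platform annotation and is not analysed here.

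The WNIN/Ob rats descend from Wistar stock and give both obese and lean offspring, and the labels name no allele behind the phenotype. All animals were untreated males 4 months old on stock diet. Total liver RNA of 4 obese animals was combined into an obese pool and RNA of 4 lean animals into a lean pool. Each pool was hybridised to 2 Affymetrix rat gene arrays, called original and technical replicate in the labels. Each phenotype is therefore 1 sample, no test across animals exists, and ranges and SDs below cover measurement error only.

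Hexoses cross cell membranes through facilitative carriers of the GLUT family, encoded by Slc2a genes, and are trapped inside the cell once a kinase adds a phosphate. Hepatocytes take up and release glucose mainly through GLUT2 (Slc2a2) and the protein encoded by Gckr restrains the phosphorylation of glucose there when glucose is low. Fructose is phosphorylated by ketohexokinase (Khk) and enters the pathways of sugar and fat metabolism after cleavage. Muscle and fat instead use the insulin-responsive carrier GLUT4 (Slc2a4) and hexokinase 2 (Hk2).

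Slc2a5 was higher in the obese pool, Slc2a4 and Hk2 were lower there, and the other 5 measured genes differed by less than a factor of 1.5. All values are log2 of the deposited intensity unless stated otherwise, and a difference is the obese minus the lean level, each level being the mean of 2 arrays. The 1.5-fold rule required a difference of that factor in either direction, a gap of at least 0.25 from the closest obese array to the closest lean array, and a level of 5.48, the median of all genes, in the higher pool. By this rule 1 of 8 genes was higher and 2 were lower, where 2.19% of all genes were higher (317) and 2.43% lower (352). Cyclic loess normalisation changed that split over all genes to 227 higher and 400 lower. The same 3 genes passed a 2-fold rule with a gap of 0.5, which 0.572% of all genes passed as higher and 1.48% as lower. The median difference of the 8 genes was -0.02, against 0.03 over all genes, and ran from -0.10 to 0.02 over the alternative settings.

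**Figure D1:**
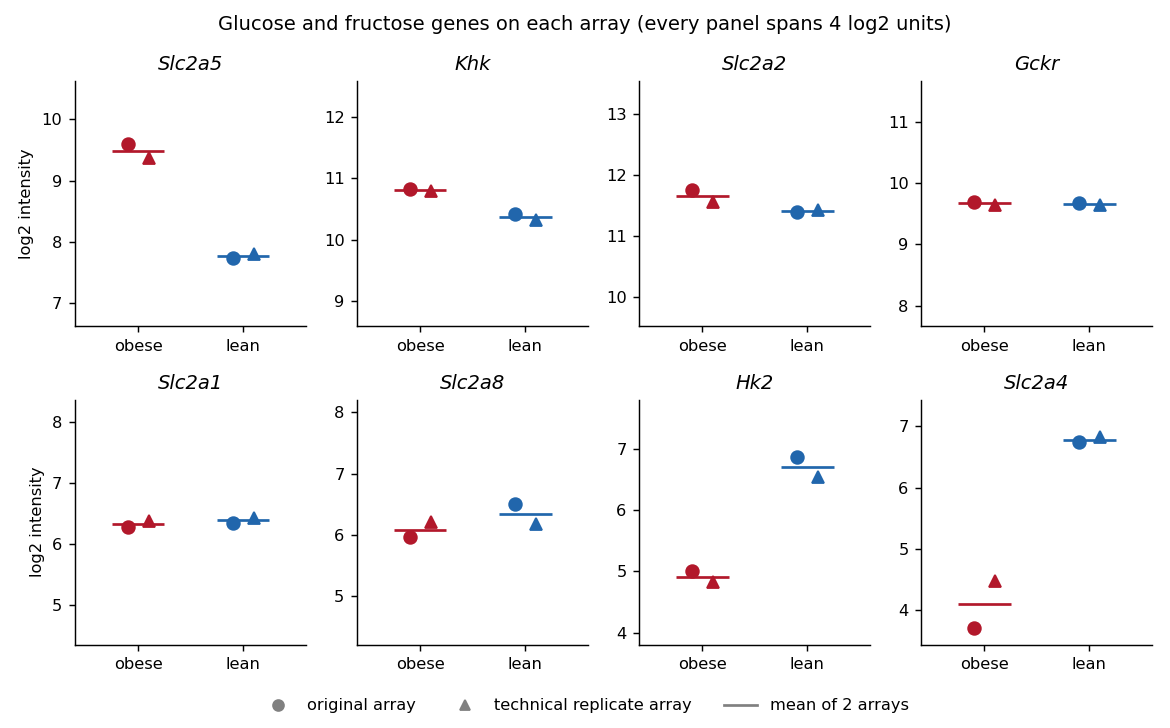
Log2 intensity of the 8 measured genes on each array, obese pool left and lean pool right, with circles for original and triangles for technical replicate arrays and a bar at the mean of 2 arrays. Every panel spans 4 log2 units; Slc2a5 stands higher in the obese pool (9.48 against 7.77), and Hk2 and Slc2a4 lower.

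Slc2a5 encodes GLUT5, a carrier with a strong preference for fructose that is best known from the intestine. It read 9.60 and 9.37 on the obese arrays, against 7.74 and 7.80 on the lean arrays. Both obese arrays lay above both lean arrays, and the gap between the pools was larger than the gap between arrays of either pool. The mean level was 9.48 ± 0.16 in the obese pool and 7.77 ± 0.04 in the lean pool (SD, n = 2 arrays each), a 3.28-fold excess (range 2.97 to 3.62 when each obese array was set against each lean array). A larger positive difference was found for 21 of the 14506 genes. Both pools lay above the median level of all genes, so the size of this fold does not rest on a dim pool.

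Khk, the kinase that makes fructose 1-phosphate, was also higher in the obese pool but by a smaller factor. It read 10.83 and 10.80 on the obese arrays, against 10.41 and 10.32 on the lean arrays, and the arrays of the pools did not overlap. The difference of 0.45 corresponds to 1.37-fold (1.31 to 1.43), which does not reach the 1.5-fold rule. Tkfc, the triokinase that phosphorylates glyceraldehyde from fructose, stood at 10.65 ± 0.04 in the obese and 9.99 ± 0.06 in the lean pool, 1.58-fold higher (1.5 to 1.66). Its difference was 0.58 with cyclic loess and 0.58 on the original arrays alone, just short of the rule in both. It passed the rule in 11 of 13 alternatives.

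The promoters of Slc2a5, Khk and Hk2 are shown because these genes hold the largest excess, its partner step in fructose use, and a deficit in the obese pool. Sequences are from RefSeq on build GRCr8 and cover the 250 bases before the annotated start on the gene's own strand, at chr5:165865929-165866178 (plus strand) for Slc2a5, chr6:31175482-31175731 (minus) for Khk and chr4:116841276-116841525 (minus) for Hk2. Capitals mark matches, on either strand, to any of 5 short motifs.
Slc2a5: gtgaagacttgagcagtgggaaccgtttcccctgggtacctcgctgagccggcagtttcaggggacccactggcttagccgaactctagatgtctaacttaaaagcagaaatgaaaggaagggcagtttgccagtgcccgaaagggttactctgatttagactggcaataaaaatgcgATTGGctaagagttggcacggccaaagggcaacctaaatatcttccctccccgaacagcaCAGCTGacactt
Khk: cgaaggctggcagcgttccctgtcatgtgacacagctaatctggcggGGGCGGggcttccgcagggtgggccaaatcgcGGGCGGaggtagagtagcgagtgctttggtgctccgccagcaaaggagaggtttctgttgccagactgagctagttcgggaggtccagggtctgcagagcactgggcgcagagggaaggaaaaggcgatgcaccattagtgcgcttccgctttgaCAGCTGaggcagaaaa
Hk2: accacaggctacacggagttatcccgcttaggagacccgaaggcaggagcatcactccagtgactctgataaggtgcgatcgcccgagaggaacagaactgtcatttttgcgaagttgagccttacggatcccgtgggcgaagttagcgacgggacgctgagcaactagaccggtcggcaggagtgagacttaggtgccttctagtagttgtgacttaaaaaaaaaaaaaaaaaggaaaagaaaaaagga

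The motifs searched were CACGTG, the E-box read by carbohydrate-response and related factors, CAGCTG, an E-box variant, CCAAT, the GC box GGGCGG and the TATA box TATAAA. The Slc2a5 window held CAGCTG 12 bases before the start and CCAAT, on the opposite strand, 72 bases before it. The Khk window held CAGCTG 16 bases before the start and GGGCGG 171 and 203 bases before it, and the Hk2 window held none of the 5. CAGCTG occurred in 3 of the 8 promoters matched for the list, those of Slc2a5, Khk and the unmeasured Slc2a9, and in 12% of all 33469 promoter windows. CACGTG occurred in 0 of the 8 and in 5.59% of all windows. GGGCGG was present in 2 of the 8 (30.5% of all windows), CCAAT in 2 (34%) and TATAAA in 0 (12.9%). Slc2a4 had no match in the promoter table. The GC content was 50.8% for Slc2a5, 60.4% for Khk and 49.6% for Hk2, where the median of all windows was 51.2%.

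Slc2a2, which encodes the main glucose carrier of the hepatocyte, was bright in both pools. It read 11.75 and 11.55 on the obese arrays, against 11.39 and 11.43 on the lean arrays. The arrays did not overlap, but the nearest of them lay only 0.12 apart, and the obese arrays themselves differed by 0.21. The fold was 1.18 (1.09 to 1.28), below the 1.5-fold rule. Over the whole list 3 genes, Slc2a5, Khk and Slc2a2, had both obese arrays above both lean arrays, as 27.5% of all genes did, and 2, Slc2a4 and Hk2, had them below, as 18.5% did.

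Gckr was the most alike between the pools. It read 9.70 and 9.65 on the obese arrays and 9.68 and 9.65 on the lean arrays, so the pools overlapped. The difference was 0.01 (-0.08 with cyclic loess), with the 4 pairs of arrays running from -0.03 to 0.05.

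Slc2a1, the GLUT1 carrier present at low amounts in most cells, read 6.28 and 6.38 on the obese arrays and 6.35 and 6.43 on the lean arrays. Slc2a8, which encodes GLUT8, an intracellular hexose carrier, read 5.96 and 6.20 on the obese arrays and 6.50 and 6.17 on the lean arrays. The pools overlapped for both genes, with folds of 1.04 lower for Slc2a1 and 1.19 lower for Slc2a8 whose pairs of arrays took either sign. For Slc2a8 the gap of 0.33 between the lean arrays exceeded the difference between the pools, which was -0.25.

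**Figure D2:**
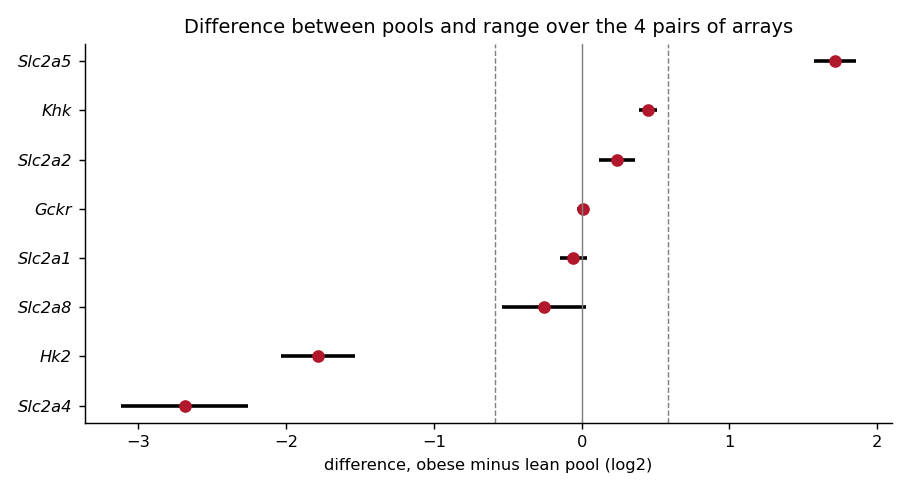
Difference between the pools (obese minus lean, log2) for each of the 8 genes, with a point for the difference of means, a bar for the range over the 4 pairs of arrays and dashed lines at a factor of 1.5. The bars of Slc2a5, Hk2 and Slc2a4 lie outside the dashed lines, those of Khk and Slc2a2 lie between 0 and the upper line, and those of Gckr, Slc2a1 and Slc2a8 cross 0.

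Slc2a4, the GLUT4 gene, had the difference of largest size among the 8 genes. It read 3.71 and 4.48 on the obese arrays, against 6.74 and 6.82 on the lean arrays. The obese arrays lay far below the lean ones although they differed from each other by 0.78, the widest gap between arrays of a pool among the 8 genes. The level was 4.10 ± 0.55 in the obese pool and 6.78 ± 0.06 in the lean pool, 6.44-fold below the lean pool (4.78 to 8.66), and 86 genes had a more negative difference.

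Hk2, which encodes the insulin-inducible hexokinase of muscle and fat, followed the same direction. It read 5.01 and 4.82 on the obese arrays, against 6.86 and 6.54 on the lean arrays, with no overlap. The level was 4.91 ± 0.13 in the obese pool and 6.70 ± 0.23 in the lean pool, 3.44-fold below the lean pool (2.89 to 4.10). The obese levels of Slc2a4 and Hk2 lie below the median level of all genes and are not shown to be above background, so neither fold has a firm size. With an offset of 16 added to each intensity before the logarithm, the differences were -1.92 for Slc2a4 and -1.38 for Hk2.

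**Figure D3:**
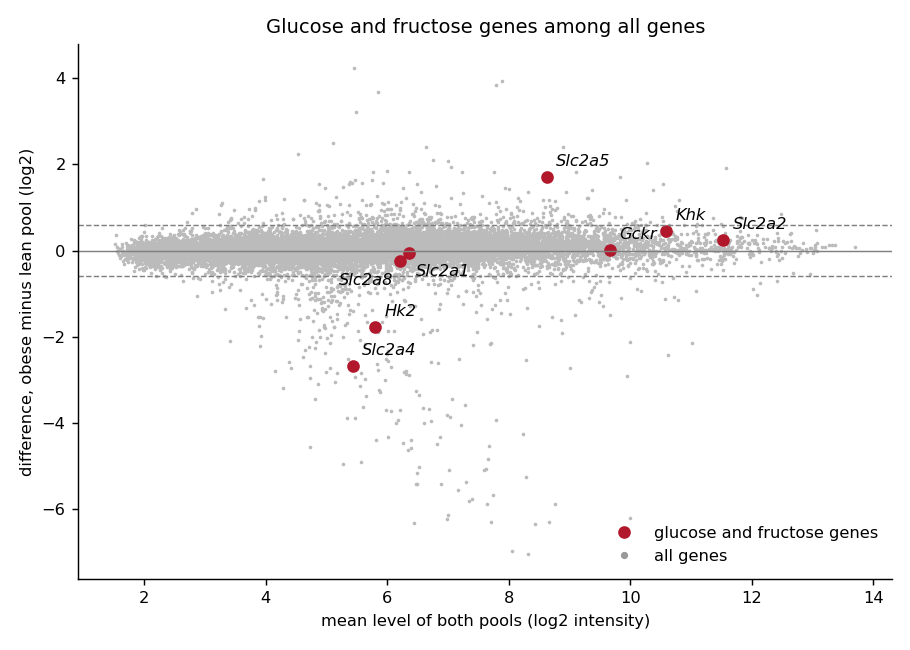
Difference between the pools (obese minus lean, log2) against the mean level of both pools (log2 intensity) for all 14506 genes in grey and the 8 genes of glucose and fructose handling in red, with dashed lines at a factor of 1.5. Slc2a5 lies above the bulk of genes at its level, Hk2 and Slc2a4 lie below it, and the other 5 lie within the dashed lines.

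Transcripts of skeletal muscle were lower in the obese pool along with Slc2a4 and Hk2. All 19 measured genes of a list of 20 muscle markers passed the 2-fold rule as lower, where 1.48% of all genes did. The 19 genes had a median difference of -5.81 and a range of -7.07 to -3.35. Their summed intensity was 643 to 665 on the obese arrays, against 37519 to 38824 on the lean arrays. Acta1, the actin of skeletal muscle, stood at 6.88 in the obese and 13.10 in the lean pool, creatine kinase Ckm at 5.82 and 11.72, and myoglobin Mb at 4.70 and 10.58. Of the 19, 3 reached the median level of all genes in the obese pool, so the differences of the other 16 have no firm size. Slc2a4 differed by -2.69 and Hk2 by -1.78. The source of the muscle transcripts in either pool and their part in the values of both genes were not tested. In pooled tissue fewer cells of a type and less RNA per cell cannot be told apart.

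**Figure D4:**
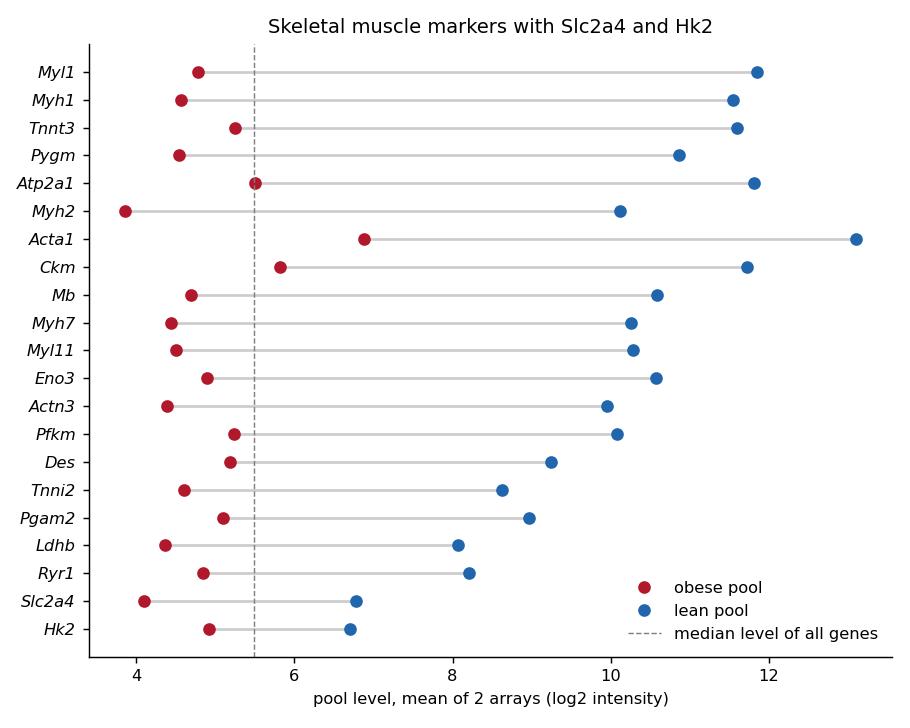
Pool levels (log2 intensity, mean of 2 arrays) of the 19 measured skeletal muscle markers, with Slc2a4 and Hk2 in the lowest rows, red points for the obese pool, blue for the lean pool and a dashed line at the median level of all genes (5.48). Every gene is lower in the obese pool, where Slc2a4, Hk2 and 16 of the 19 markers lie below the dashed line.

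Fat cells also express Slc2a4 and Hk2. Of 8 adipocyte markers 3 reached the median level of all genes in either pool and could pass the 1.5-fold rule. Of these 1 passed, as lower, where 2.43% of all genes were lower. This was lipoprotein lipase (Lpl), 5.72-fold below the lean pool (4.94 to 6.63), which muscle expresses too. Adipoq, the adiponectin gene, stood at 4.21 in the obese and 4.57 in the lean pool, and the leptin gene Lep at 4.20 and 4.63, all below the median level of all genes. Cidec, a lipid droplet protein of fat cells that fatty liver also makes, stood at 8.94 in the obese and 8.41 in the lean pool (1.44-fold, 1.37 to 1.52) and did not reach the rule. Of the 8 differences 3 lay above 0 and 5 below. The summed intensity of the 8 markers was 714 to 760 on the obese arrays, against 871 to 907 on the lean arrays. Their part in the differences of Slc2a4 and Hk2 was not tested.

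All 12 hepatocyte markers lay above the median level of all genes in both pools, and 0 passed the 1.5-fold rule. They had a median difference of 0.08, and albumin (Alb) stood at 13.74 in the obese and 13.67 in the lean pool. Because Slc2a5 is abundant in intestine and present in kidney, markers of both were read. All 6 kidney markers lay below the median level of all genes in both pools, with differences from -0.15 to 0.29. Of 3 measured intestinal markers, Vil1 and Cdx2 stood at 3.63 and 3.61 in the obese pool, against 3.52 and 3.51 in the lean pool, whereas the intestinal fatty acid-binding protein gene Fabp2 stood at 5.65 in the obese and 3.41 in the lean pool. The part of Fabp2-expressing cells in the Slc2a5 value was not tested. Red blood cells carry glucose carriers too, and all 5 measured markers had differences below 0. Over all genes 2.43% were lower by the 1.5-fold rule. Of the 5 markers 3 reached the median level of all genes in either pool and could pass, and 2 were lower. These 2 were Hbb, at a difference of -0.90, and Alas2, at -1.34. Slc2a1 was at -0.06 and Slc2a4 at -2.69. The part of red blood cells in the values of the sugar carriers was not tested. Of the markers of macrophages, endothelium and bile duct, 0 of 8, 0 of 6 and 0 of 5 passed the rule. All 8 macrophage and all 6 endothelial markers nevertheless had differences below 0, with medians of -0.25 and -0.20. Of all 14506 genes, 6120 had a difference more negative than the -0.004 of the gene Slc37a4. Of the 5 bile duct differences 3 lay above 0 and 2 below. The bile duct markers lay below the median level in both pools and could not pass. The summed intensity of the 5 red blood cell markers was 3318 to 3378 on the obese arrays, against 6168 to 6431 on the lean arrays.

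The genes with the pattern most like each of the 3 genes past the rule were found by the root mean square difference over the 4 arrays after each gene's own mean was subtracted, among 7554 genes that reached the median level in a pool. For Slc2a5 they were the prolactin receptor gene Prlr (0.06), the interleukin receptor gene Il17rb (0.06) and Hamp, the gene of the iron hormone hepcidin (0.07), with differences of 1.82, 1.82 and 1.72. For Slc2a4 they were the sterol exporter gene Abcg5 (0.13), the muscle membrane repair gene Trim72 (0.13) and Cpt1b, the muscle form of carnitine palmitoyltransferase (0.15), with differences of -2.71, -2.85 and -2.95. For Hk2 they were the sodium channel subunit gene Scn4b (0.06), Nipsnap2 (0.11) and the sodium-proton exchanger gene Slc9a7 (0.12), with differences of -1.84, -1.90 and -1.63. The measure covers 4 arrays of 2 pools, so it describes genes with a similar difference.

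Most of the remaining carriers of sugar were too dim for the 1.5-fold rule to apply. Of 7 other measured carriers that are not coupled to sodium 3 reached the median level of all genes in either pool and could pass, and 0 passed. The median difference of the 7 was 0.00. Slc2a3, which encodes GLUT3, the carrier typical of neurons, stood at 2.85 in the obese and 3.27 in the lean pool, both below the median level. The largest differences were -0.42 for Slc2a3, -0.34 for Slc2a12 and 0.30 for Slc50a1, a SWEET family sugar transporter. Of 6 sodium-coupled carriers 0 reached the median level in either pool, so none could pass.

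Of 8 other kinases of hexoses and related sugars 2 were higher and 0 lower, where 2.19% of all genes were higher and 2.43% lower. The median difference of the 8 was 0.13. Besides Tkfc, the higher gene was Nagk, which phosphorylates N-acetylglucosamine, at 5.78 ± 0.16 in the obese and 5.19 ± 0.12 in the lean pool (1.51-fold, 1.32 to 1.72), a lean level below the median of all genes. The higher count was 0 with cyclic loess and 1 with the offset of 16, on the original arrays alone, on the technical replicate arrays alone and when the lean technical replicate or the obese original was left out. Nagk's difference, 0.59 as reported, was 0.51 with that lean array left out and 0.48 with that obese array left out, too small for the rule. Where the count was 1, the gene was Nagk (0.62) on the original arrays alone and Tkfc in the other settings. The median of the 8 kinases ran from 0.09 to 0.32 over the alternatives, and was 0.25 when the obese technical replicate was left out. The broad-tissue hexokinase Hk1 stood at 5.56 in the obese and 5.59 in the lean pool, and the hexokinase of blood cells Hk3 at 4.27 and 4.15. Beside the deficit of Hk2 stood differences of -0.03 for Hk1 and 0.12 for Hk3.

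Genes of fructose supply and breakdown had a median difference of 0.22, against 0.03 over all genes, and 7 of the 9 measured lay above 0. Of all 14506 genes, 8166 had a difference larger than the 0.003 of the carrier gene Slc2a13. By the 1.5-fold rule 1 of the 9, Tkfc, was higher and 1 was lower, where 2.19% of all genes were higher and 2.43% lower. The median of the 9 was 0.33 when the obese technical replicate was left out. Sord, which oxidises sorbitol to fructose, was 1.23-fold higher (1.19 to 1.27) and did not reach the rule. Akr1b1, the aldose reductase that makes sorbitol from glucose, was 1.97-fold lower (1.88 to 2.07), at 6.30 ± 0.05 in the obese and 7.28 ± 0.04 in the lean pool. It had a second probe set, and the mean of both gave a difference of -0.77, with which it did not pass the rule because its lean level was then 5.32. Pfkl, the liver form of phosphofructokinase, had a fold of 1.47 (1.43 to 1.5), and passed the rule in 1 of 13 alternatives, median centring. Fbp1, the fructose bisphosphatase of gluconeogenesis, had a fold of 1.30 (1.25 to 1.36).

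Of 18 genes around glucose 6-phosphate 1 was higher and 3 were lower, where 2.19% of all genes were higher and 2.43% lower. The median difference of the 18 was 0.07, which was 0.00 without the lean technical replicate array. Pklr, the pyruvate kinase of liver, differed by 1.16, and G6pc1, the phosphatase subunit that frees glucose for release through GLUT2, by -1.12. Slc37a4, which brings glucose 6-phosphate to that enzyme, stood at 9.64 in both pools. Pfkm, the muscle phosphofructokinase and a member of the muscle list, differed by -4.84, and Pfkfb3, an enzyme that makes the activator fructose 2,6-bisphosphate, by -1.03. The obese levels of Pfkm and Pfkfb3 lay below the median of all genes, and neither fold has a firm size.

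Genes that move GLUT4 to the cell surface were read beside Slc2a4. Of 11 measured members 0 passed the 1.5-fold rule, 6 had differences above 0 and 5 below, and the median was 0.09. That median was 0.00 without the obese original array, 0.19 without the obese technical replicate array, 0.21 on the original arrays alone and -0.04 on the technical replicate arrays alone. The most negative was Trarg1, a partner of GLUT4 vesicles in fat and muscle, at 3.52 in the obese and 4.11 in the lean pool, which did not reach the median level in either. Tbc1d4 had no single-symbol probe set and is not analysed here.

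Among 14 regulators of sugar and insulin response 1 was higher and 2 were lower, where 2.19% of all genes were higher and 2.43% lower. The median difference of the 14 was 0.00. Txnip, the arrestin-like protein that limits glucose uptake through GLUT1 and GLUT4, stood at 8.97 ± 0.02 in the obese and 9.82 ± 0.02 in the lean pool, 1.80-fold lower (1.77 to 1.83). Its relative Arrdc4 stood at 5.79 in the obese and 5.77 in the lean pool. Mlxipl, the carbohydrate-response factor ChREBP, stood at 8.26 and 8.16, and its partner Mlx at 8.56 and 8.25. Ppp1r3b, a glycogen-targeting phosphatase subunit, differed by 0.95 and the coactivator gene Ppargc1a by -1.38, with an obese level of 4.24 below the median of all genes.

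**Figure D5:**
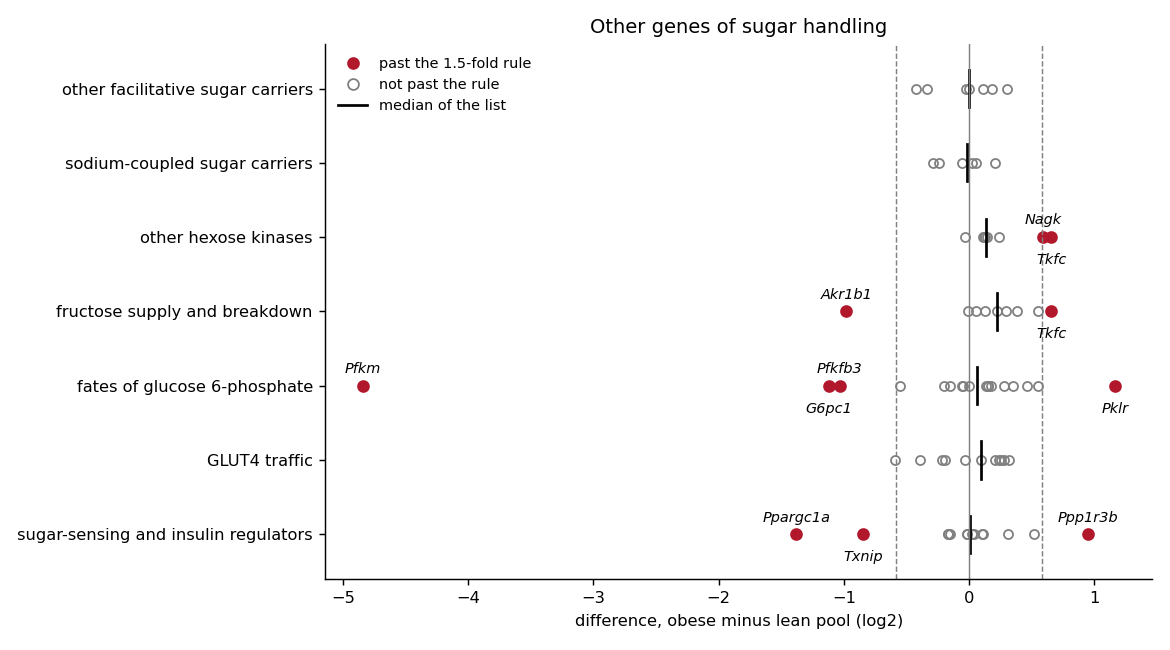
Difference between the pools (obese minus lean, log2) of each measured gene in 7 lists of sugar handling, with filled points for genes past the 1.5-fold rule, open points for the others, a black bar at each list's median and dashed lines at a factor of 1.5. Medians lie between -0.02 and 0.22, and named genes reach from -4.84 for Pfkm to 1.16 for Pklr.

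Taking the lists of sugar handling and of urate handling together, 80 genes besides the 8 were measured, with a median difference of 0.06. By the 1.5-fold rule 4 of the 80 were higher and 6 lower, where 2.19% of all genes were higher and 2.43% lower. The 4 higher genes were Tkfc, Nagk, Pklr and Ppp1r3b, and with cyclic loess 2 genes passed as higher.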

How the data were processed

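The authors deposited 1 intensity for every probe set on every array, and the submitters' processing notes name RMA, with no version. Since these intensities reach 14288, they were taken as linear and converted to log2 here, without further normalisation. No genome build is stated in the sources. Of 29214 probe sets 15310 carried 1 gene symbol, 323 several and 13581 were not listed, and the gene table of assembly GRCr8 held 15279 of the 15310 identifiers. The probe set with the highest mean represented a gene. Arrays were grouped by the phenotype in the labels. Their number limits the precision, and detection calls were not used. RMA compresses differences of dim probe sets.

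No p-value was computed, since each phenotype is 1 pool. The 8 measured genes, the fixed genes Hk1, Hk3, Slc2a3, Tkfc, G6pc1, Slc37a4, Mlxipl, Txnip, Tbc1d4, Acta1, Ckm, Mb and Alb, up to 6 genes per list past the 1.5-fold rule and the 3 nearest patterns per gene past it were to be named; some items of that rule are not reported here, and other genes were named after their values were seen. Members and lists were chosen with earlier results of these data known. Python 3.11.15, pandas 2.3.3, R 4.3.3 and limma 3.58.1 (cyclic loess and quantile normalisation) were used. Alternatives were leaving out arrays, other normalisations, an offset, the mean of probe sets and other level filters.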

Additional observations from a re-analysis of the deposited data

How the results depend on the processing

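The counts of the 8 genes past the 1.5-fold and 2-fold rules were 1 higher and 2 lower under all 13 alternatives, and the genes past the 1.5-fold rule were Slc2a5, Slc2a4 and Hk2 each time. The difference of Slc2a5 ran from 1.57 to 1.85 over its 11 alternatives, that of Khk from 0.37 (cyclic loess) to 0.50, and that of Slc2a2 from 0.12 to 0.36. With an offset of 16, Slc2a4 was at -1.92 and Hk2 at -1.38, which the offset's shrinking of dim values accounts for. Gckr took either sign, at -0.08 with cyclic loess and 0.05 with median centring. So did the median of the 8 genes, at -0.10 with cyclic loess, -0.06 with quantile normalisation, 0.02 with median centring and 0.01 on the technical replicate arrays alone; the cause was not tested. Genes whose obese arrays lay above the lean ones numbered 5 on the technical replicate arrays alone. Those below numbered 4 on the original arrays alone and 2 to 4 when an array was left out, the 4 without the obese technical replicate array; fewer arrays overlap less often by construction. Of the other sugar and urate genes 2 were higher with cyclic loess, against 4 as reported. Over all genes the count of 1.5-fold higher genes, 317 as reported, came to 553 when the obese technical replicate array was dropped and to 616 on the original arrays alone. No paired analysis was possible because each phenotype is 1 pool and no result comes from a test.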

Other observations

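GLUT9, encoded by the unmeasured Slc2a9, carries urate as well as hexoses, so other genes of urate and purine handling were read. Of 9 measured genes 6 reached the median level of all genes in either pool and could pass the 1.5-fold rule. In either direction 0 passed, where 2.19% of all genes were higher and 2.43% lower. The median difference of the 9 was -0.05. Uox, the urate oxidase that rodents retain, stood at 11.71 in the obese and 11.52 in the lean pool (1.14-fold higher, 1.13 to 1.15). Xdh, the oxidoreductase that makes urate, stood at 9.78 and 9.44 (1.26-fold, 1.16 to 1.37). The phosphate and urate carrier genes Slc17a1 and Slc17a3 differed by -0.25 and -0.30. Of the 9 genes 2, Uox and Xdh, had both obese arrays above both lean arrays, as 27.5% of all genes did. Another 4, Slc17a1 and Slc17a3 among them, had them below, as 18.5% did.

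The bifunctional enzymes that set fructose 2,6-bisphosphate differed among themselves. Pfkfb1, the liver form, stood at 8.97 in the obese and 9.53 in the lean pool, a difference of -0.55 that did not reach the rule. It passed as lower in 5 of 13 alternatives, at -0.64 with cyclic loess, -0.59 with quantile normalisation and without the lean original array, -0.71 on the technical replicate arrays alone and -0.68 without the obese original array. Pfkfb3 differed by -1.03. Pfkfb2 and Pfkfb4 differed by 0.15 and -0.05, with overlapping arrays.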
